A study of Mus musculus with 16 samples.

Results

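The promoters of the 4 Hox clusters were followed in Promoter Capture Hi-C data from mouse liver. A bait is here a HindIII fragment that the lists of pairs give as captured. Of 39 protein-coding Hoxa, Hoxb, Hoxc and Hoxd genes in the GENCODE vM1 annotation of mouse build mm9, 36 had the start of their gene record on a bait. They lay on 35 baits, because Hoxa3 and Hoxa7 shared one, out of 18165 baits in the data. A captured fragment without a listed pair is not counted as a bait, so each bait has a contact by construction. Hoxb2, Hoxc12 and Hoxc13 had no bait at their start, and the lists do not tell whether their promoters were captured. These 35 baits had an end in 695 of the 247177 distinct fragment pairs. The animals were male C57BL/6 mice, wild type and 8 weeks of age, fed freely, and housed with lights on for 12 h a day. Livers were taken at ZT0 (lights on), ZT6, ZT12 (lights off) and ZT18, with 3 pools of 2 livers at each timepoint. Pool A was sequenced in 2 lanes and pools B and C in 1 each, which makes 4 samples per timepoint. The authors merged the pools, so each timepoint is 1 list of pairs with their CHiCAGO scores, and the lists of ZT0, ZT6, ZT12 and ZT18 held 146262, 154775, 151529 and 151347 pairs. A CHiCAGO score grows with the evidence that a pair has more reads than a background for its distance, and pairs with a score of at least 5 were listed. With 1 list per timepoint no difference below could be set against a spread between replicates, no test was run, and the read depth behind a pair is unknown. The livers were unsorted tissue, and the lists hold no expression values against which the cell types could be checked.

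Hox genes encode homeodomain transcription factors that pattern the body axis of the embryo. They stand in each cluster in the order of their paralogue numbers, with low numbers at the 3′ end and high numbers at the 5′ end of the shared direction of transcription, and this order follows the order in which they are used along the axis. In the embryo, distal enhancers in the landscapes on either side of a cluster control groups of its genes, and the Hoxd cluster is the best known case, with one landscape for the early and proximal limb and the other for the digits. Where a cluster is silent it is typically covered by Polycomb complexes. These roles are best known from the embryo, and the livers here came from adult animals.

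The Hoxa cluster spans 106 kb (chr6:52105366-52210874), the Hoxb cluster 174 kb (chr11:96055630-96229570), the Hoxc cluster 116 kb (chr15:102751534-102867274) and the Hoxd cluster 96.8 kb (chr2:74506367-74603200). The a cluster runs on the minus strand and the others on the plus strand. They held 10, 9, 7 and 9 Hox baits in that order. Baits follow the start of the gene record, which can lie upstream of a neighbouring gene. The Hoxd3 bait thus lay between those of Hoxd8 and Hoxd4, and the Hoxa3 start between those of Hoxa6 and Hoxa7, outside the paralogue order. A bait is a whole HindIII fragment, so its ends do not follow the gene, and the Hoxb8 promoter shows this best. The 220 bases of mm9 at chr11:96143019-96143238, plus strand, reach from 200 bases before to 20 bases into the gene, and the capitals mark the HindIII site.

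Hoxb8 start: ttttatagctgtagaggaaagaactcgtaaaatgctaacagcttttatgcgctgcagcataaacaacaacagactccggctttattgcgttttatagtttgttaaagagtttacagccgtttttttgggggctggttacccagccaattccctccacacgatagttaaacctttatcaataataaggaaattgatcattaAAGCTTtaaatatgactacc

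The cut falls after the first base of the gene, so the Hoxb8 bait held almost only upstream sequence, while the transcribed part of Hoxb8 lay on the bait named for Hoxb7. Both baits are treated below under their own names. In the 300 bases around the start (250 before, 50 after), 3 of the 36 Hox genes (Hoxa9, Hoxb1 and Hoxb8) had the site AAGCTT, 8.33%, against 6.43% of the 16855 protein-coding gene starts on baits. GC content in this window had a median of 55.8% for Hox genes, from 34.3% at Hoxa9 to 81% at Hoxa13, and of 57% over all such starts. The ratio of observed to expected CpG had a median of 0.704 for Hox genes and 0.623 over all. Hoxa2, at 0.105, and Hoxd11, at 0.167, had the lowest ratios among Hox genes and Hoxa4, at 1.23, the highest. The Hox baits were 384 to 15984 bp long with a median of 5273 bp, close to the 5861 bp of all baits. The shortest was that of Hoxd11 and the longest that of Hoxb13.

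A few of the distal fragments that several Hox promoters shared were short enough to be shown whole. They are the listed other ends of at most 300 bases with 3 or more Hox baits, given on the plus strand of mm9 with the remaining letters of the HindIII site that opens each fragment in capitals.

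chr6:51120010-51120248: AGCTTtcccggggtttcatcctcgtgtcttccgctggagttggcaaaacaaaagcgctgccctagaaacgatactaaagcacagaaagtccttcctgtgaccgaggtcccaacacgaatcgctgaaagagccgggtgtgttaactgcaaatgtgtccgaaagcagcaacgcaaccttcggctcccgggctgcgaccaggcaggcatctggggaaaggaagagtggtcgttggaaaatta
chr6:51120249-51120424: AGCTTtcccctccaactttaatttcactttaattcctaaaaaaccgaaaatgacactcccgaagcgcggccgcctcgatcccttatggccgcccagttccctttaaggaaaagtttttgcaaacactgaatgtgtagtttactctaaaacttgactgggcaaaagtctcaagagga
chr6:51817764-51817972: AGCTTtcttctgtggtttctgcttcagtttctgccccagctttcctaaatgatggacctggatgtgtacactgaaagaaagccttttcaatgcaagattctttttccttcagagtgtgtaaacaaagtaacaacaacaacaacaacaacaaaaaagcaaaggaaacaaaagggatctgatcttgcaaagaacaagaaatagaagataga
chr15:102981954-102982153: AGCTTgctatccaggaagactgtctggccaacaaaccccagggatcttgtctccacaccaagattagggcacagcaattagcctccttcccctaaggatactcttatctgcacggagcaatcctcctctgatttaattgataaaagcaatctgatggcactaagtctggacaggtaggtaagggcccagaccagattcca

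The first and the second adjoin each other about 1 Mb beyond the 3′ end of the Hoxa cluster, in a stretch without a protein-coding gene. The second, of 176 bp with 7 CpG dinucleotides, was paired with the baits of Hoxa2, Hoxa3/Hoxa7, Hoxa4, Hoxa6, Hoxa9 and Hoxa11. Its pair with Hoxa11 scored 7.09, 6.99, 10.88 and 6.86 at ZT0, ZT6, ZT12 and ZT18 and was the only one of the 6 to be listed at all 4 timepoints. The third lies in an intron of Skap2, which encodes an adaptor protein of immune cells, and was paired with Hoxa3/Hoxa7, Hoxa5 and Hoxa6. The fourth lies between genes beyond the 3′ end of the Hoxc cluster and was paired with 6 of the 7 Hoxc baits. All 6 of those pairs were listed at ZT0 and 2 of them at each of the other timepoints.

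Hox baits were rarely paired with one another. Of 131 possible pairs of Hox baits of one cluster that lay under 200 kb apart and did not adjoin, 9 were listed at any timepoint, 6.87% (95% Wilson interval 3.66 to 12.5%). Over all baits of the genome, 34.6% of such pairs were listed. The difference held within each class of distance that had more than 5 Hox pairs. Under 25 kb, 5 of 47 Hox pairs were listed, 10.6% (4.63 to 22.6%), and 42% over all baits. From 25 to 50 kb it was 2 of 42, 4.76% (1.32 to 15.8%), and 36.1%. From 50 to 100 kb it was 2 of 37, 5.41% (1.5 to 17.7%), and 36.5%. From 100 to 200 kb none of 5 was listed, which is too few to read, and 31.7% over all baits. The intervals cover counting error only, and pairs that share a bait are not independent.

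**Figure D1:**
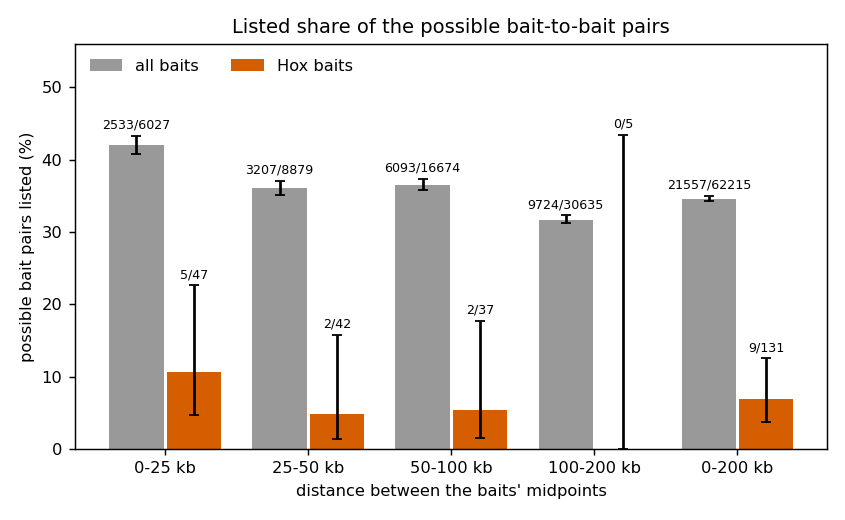
Percentage of the possible bait pairs that were listed at any timepoint (y axis) by the distance between the baits (x axis), for all baits (grey) and Hox baits (orange), with 95% Wilson intervals and the number listed over the number possible above each bar. The Hox bars lie at 10.6% or less, and the bars of all baits between 31.7% and 42%.

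The 9 pairs were unevenly spread. The a cluster had none of 43 possible ones, the b cluster 4 of 34, the c cluster 1 of 21 and the d cluster 4 of 33. Hoxd8 took part in all 4 of the Hoxd pairs. Hoxd8 and Hoxd4, 12.4 kb apart, scored 12.12 (ZT0), 13.36 (ZT6), 18.38 (ZT12) and 21.81 (ZT18). Hoxd9 and Hoxd8 scored 6.41, 5.61, 7.85 and 9.76 at the same times. These were the only ones of the 9 that were listed at all 4 timepoints, and both had their highest score at ZT18. Hoxd8 and Hoxd1 scored 6.43 at ZT0, 7.17 at ZT12 and 10.03 at ZT18 and were not listed at ZT6. Hoxd12 and Hoxd8 scored 8.77 at ZT12 and 11.65 at ZT18 only. So each of these 4 pairs had its highest score at ZT18.

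In the b cluster, Hoxb4 was in 3 of the 4 pairs. Hoxb4 and Hoxb3 scored 9.39 at ZT0, 5.64 at ZT6 and 5.14 at ZT18, and the other pairs, Hoxb4 with Hoxb1, Hoxb7 with Hoxb4 and Hoxb8 with Hoxb5, were each listed at a single timepoint with scores of 6.79, 5.18 and 5.99. The fragment of Hoxb2, which is no bait, was paired once with Hoxb4 (5.85 at ZT0) and once with Hoxb5 (5.04 at ZT18). The only Hoxc pair, Hoxc8 with Hoxc6, scored 5.33 at ZT0. Thus 6 of these 7 pairs were at a single timepoint, near the lowest score listed. No pair joined Hox baits of different clusters, and no Hox bait had a pair on another chromosome. Pairs between chromosomes made up only 0.0801% of all pairs.

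Other groups of related genes differed from each other in this share. Replication histone genes, which package newly made DNA and also lie in clusters, had 36 baits, and 140 of their 179 possible pairs under 200 kb were listed, 78.2% (71.6 to 83.6%). Homeobox genes of development outside the Hox clusters had 12 such possible pairs, of which 1 was listed, 8.33% (1.49 to 35.4%). That is near the share of the Hox baits, though on few pairs. A bait stood at both ends of 60 of the 695 Hox pairs, 8.63% (6.77 to 11%), against 15.4% of all pairs and 32.7% of the histone pairs.

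The pairs that Hox baits did have were long in the median, though not in every cluster. The median distance of the 695 pairs was 297 kb, against 162 kb for all pairs. Only 15 Hox pairs, 2.16% (1.31 to 3.53%), spanned under 50 kb, where 13.5% of all pairs within a chromosome lay. Pairs over 500 kb numbered 151, 21.7% (18.8 to 24.9%), against 7.88% of all. Beyond 1 Mb lay 75, 10.8% (8.7 to 13.3%), against 1.43% of all pairs. All 75 were Hoxa pairs, since the longest pairs of the b, c and d clusters spanned 591, 345 and 897 kb. The share beyond 1 Mb was 1.14% for homeobox genes of development outside the clusters and 47.8% for replication histone genes. The a cluster carried most of the long pairs, since 127 of its 166 pairs spanned over 500 kb and its median was 980 kb. The medians of the b, c and d clusters were 310, 157 and 337 kb, so that of the c cluster was slightly below the median of all pairs. For Hox baits with at least 10 contacts, the nearest listed contact lay at a median of 170 kb, while it lay at 18.4 kb for all baits with as many contacts. For homeobox genes of development outside the clusters it was 115 kb, and the median distance of their pairs, 317 kb, was near that of Hox pairs.

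**Figure D2:**
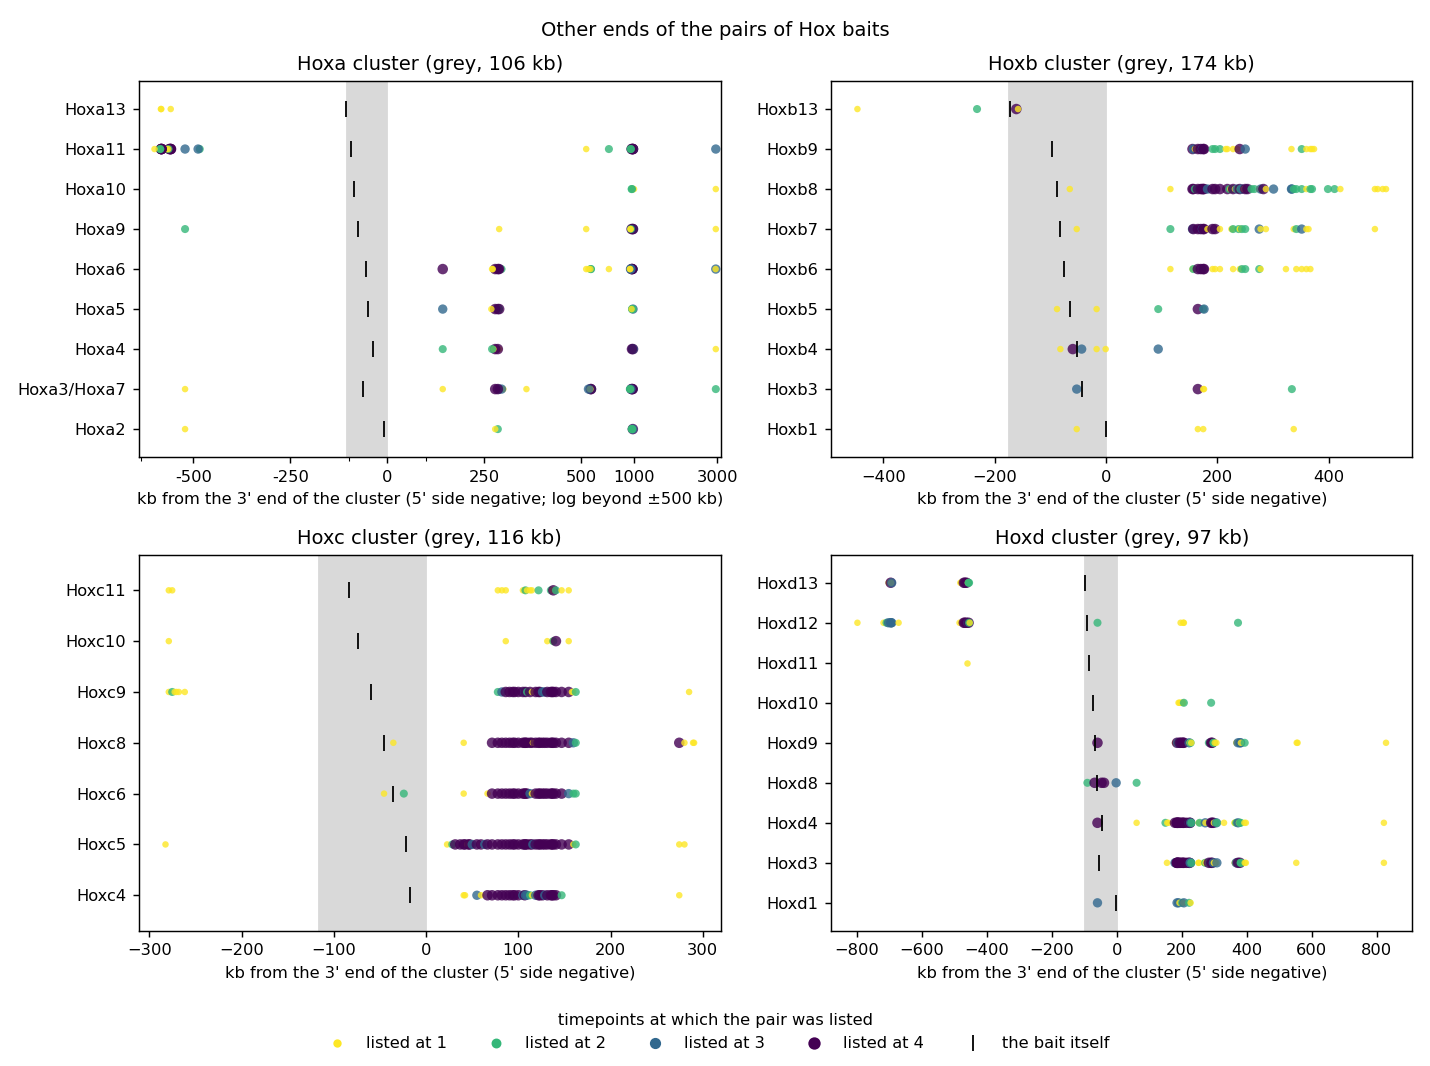
Other ends of the pairs of the Hox baits (1 row per bait shown, ordered by paralogue number), by distance in kb from the 3′ end of the cluster, with the cluster in grey and the bait as a black tick. Darker and larger points were listed at more timepoints. Most points lie in a few columns to the right of the grey band, those of Hoxd12 and Hoxd13 mostly to its left, and those of Hoxa11 on both sides.

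The contacts outside a cluster lay mostly beyond its 3′ end. Counting each pair once for each Hox bait in it, 134 of 166 lay there for the a cluster, 80.7% (74.1 to 86%), 136 of 138 for the b cluster, 98.6% (94.9 to 99.6%), 191 of 201 for the c cluster, 95% (91.1 to 97.3%), and 143 of 174 for the d cluster, 82.2% (75.8 to 87.2%). In the a and d clusters the exceptions came almost all from the genes with high numbers. The baits of paralogues 11 to 13 had 15 contacts on the 3′ and 29 on the 5′ side in the a cluster, and 4 and 31 in the d cluster. In the d cluster all 139 outside contacts of Hoxd1 to Hoxd10 lay on the 3′ side. Hoxd13 had 12 contacts, each on the 5′ side, and Hoxd12 had 18 there, 4 on the 3′ side and 1 inside. Hoxd11, between Hoxd10 and Hoxd12, had 1 contact, on the 5′ side, on a bait of 384 bp. The side therefore changed between Hoxd10 and Hoxd12. Of the 22 Hox baits with at least 10 contacts, 18 had at least 90% of them to one side of the bait, 81.8%, and 40.8% of all baits with as many contacts did. For developmental homeobox genes outside the clusters it was 71%, 22 of 31 baits, so this is not particular to the Hox clusters.

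Contacts were gathered in blocks. Joining other ends at most 20 kb apart and keeping those with 3 or more Hox baits gave 16 blocks, which held 620 of the 679 contacts outside the clusters, 91.3%. The same was not done for other baits. Of 243 other ends that are no bait, 148 were shared by 2 or more Hox baits, 60.9% (54.6 to 66.8%), and 42 by 5 or more, 17.3% (13 to 22.5%). Over all 111722 such fragments, 40.9% had 2 or more baits of any gene and 5.67% had 5 or more. These shares were not matched for the number of baits nearby, and Hox baits stand close together. Of the 243, 80 also had a pair with a bait that is no Hox bait.

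The block with the most a-cluster baits lay at chr6:51104933-51162854, 943 kb beyond the 3′ end, without a protein-coding gene. It had 77 pairs with 9 of the 10 Hoxa baits, and Hoxa13 had none there. Of these pairs, 57, 38, 58 and 36 were listed from ZT0 to ZT18. Hoxa6 reached the highest Hoxa score there, with the fragment chr6:51130766-51133200, at 21.03, 13.79, 13.54 and 17.2 over the 4 timepoints. Hoxa11 scored 16.57, 17.43, 19.22 and 16.27 with the same fragment, so both pairs were listed at all 4 timepoints at more than 1 Mb. Nearer blocks lay in Skap2, at chr6:51802733-51838428 (29 pairs with 7 baits), and around Snx10, which encodes a sorting nexin, at chr6:51521763-51575618 (14 pairs with 4 baits). Hoxa11 was the one Hoxa promoter with many contacts on the 5′ side. It had 26 of them, 22 within chr6:52762352-52881174, and the highest score on that side was for a fragment in an intron of Jazf1, a zinc finger gene, with 8.23 (ZT0), 12.55 (ZT6), 15.01 (ZT12) and 17.71 (ZT18).

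In the b cluster, 123 pairs of 7 baits fell in 1 block of 222 kb at chr11:96384116-96605626, all of it within Skap1, which encodes an adaptor protein of T cells. It began 155 kb beyond the 3′ end. Hoxb8 had the highest score, with chr11:96398047-96401394, at 18.51, 24.44, 18.82 and 22.5 over the timepoints. Hoxb7, whose bait adjoins that of Hoxb8, scored 16.12, 15.05, 7.2 and 20.34 with the neighbouring fragment chr11:96391046-96398046, and Hoxb8 scored between 19.74 and 21.44 with that one. The upstream part of Hoxb8, shown above, and the fragment after the cut were thus both listed with it at every timepoint. Of all 147 Hoxb pairs, 108 had an other end in an intron and 35 on an exon of a protein-coding gene. Over all 695 Hox pairs it was 158 and 108, and there is no such share over all pairs to set beside these.

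The Hoxc block was the densest, with 183 pairs of all 7 baits at chr15:102885686-103030928, a stretch of 145 kb that overlaps Smug1 and Cbx5. Of these, 122 were listed at all 4 timepoints. Hoxc5 had the highest scores of any Hox promoter. With chr15:102951790-102955619 it scored 35.11, 44.76, 49.81 and 56.53 in the order of the timepoints, the last being the highest Hox score, and with chr15:102947254-102951789, the adjoining fragment, 48.18, 37.0, 39.61 and 46.87. The scores of adjoining fragments thus ran in different orders over the day.

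In the d cluster 3 blocks followed each other in the gene desert beyond the 3′ end, at chr2:74751974-74833829 (70 pairs), chr2:74854654-74912107 (38 pairs) and chr2:74965231-75000839 (26 pairs), and none overlaps a protein-coding gene. Hoxd3 and chr2:74808609-74810758 scored 27.7, 25.42, 30.8 and 20.21 over the timepoints. Hoxd4 scored 27.3, 30.3, 30.33 and 25.65 with chr2:74801448-74807282. On the 5′ side, the block chr2:74117230-74151377 was paired with Hoxd11, Hoxd12 and Hoxd13 and with no other Hox bait. With chr2:74138101-74143729, the Hoxd13 scores were 18.19, 15.18, 10.58 and 9.33, and the Hoxd12 scores 19.44, 15.65, 11.61 and 13.1. The single pair of Hoxd11 was with this fragment too, at 7.23 at ZT6.

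Neighbouring Hox promoters could differ strongly in their number of contacts. The median Hox bait had 15 contacts, with quartiles of 6 and 31.5, and the median of all baits was 9, with quartiles of 4 and 21. The counts ran from 1 at Hoxd11 to 51 at Hoxb8. Hoxd8 had 6 contacts, of which 5 were inside the cluster and 1 was with Mtx2, while the baits of Hoxd9 and Hoxd3 on either side had 33 and 45, with at most 1 inside the cluster. Hoxb4 likewise had 6 contacts, 5 of them inside, and it scored 13.03, 12.15, 9.1 and 8.38 with its neighbour chr11:96165556-96174457. Hoxa10 had 6 contacts between Hoxa9 with 15 and Hoxa11 with 41. Some genes at the ends of the clusters had few: Hoxa13 3, Hoxb1 4 and Hoxb13 4. Hoxc5 with 46, Hoxd4 with 47 and Hoxd3 with 45 came next to Hoxb8 at the top.

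A few promoters of flanking genes stood at the other end. Smug1, which encodes a DNA repair enzyme that removes uracil, was paired with 6 Hoxc baits, 5 of them at all 4 timepoints. Hoxc5 and Smug1 scored 39.92 (ZT0), 34.91 (ZT6), 24.56 (ZT12) and 22.09 (ZT18). Hoxc8 and Smug1 scored 25.31, 32.47, 22.79 and 15.46, and Hoxc6 and Smug1 21.84, 18.74, 14.51 and 13.77. Each of these was lowest at ZT18. So were Hoxc9 and Smug1, at 14.02, 13.81, 12.93 and 8.56, and, over a narrower range, Hoxc4 and Smug1, at 10.38, 12.11, 13.12 and 9.88. Hoxc11 and Smug1 were listed at ZT6 (9.15) and ZT18 (5.57) only. Gpr84, a receptor for medium-chain fatty acids, was paired with Hoxc8 at all 4 timepoints (5.89, 7.98, 5.71 and 11.04), and with Hoxc4 and Hoxc5 at 1 timepoint each.

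The longest Hox pairs joined 6 Hoxa baits to the start of Igf2bp3, which encodes an mRNA-binding protein of fetal tissue, about 3 Mb away (chr6:49162551-49169452). Hoxa11 and Igf2bp3, 3032 kb apart, scored 18.23 at ZT0, 13.28 at ZT6 and 6.89 at ZT18 and were not listed at ZT12. Hoxa6 and Igf2bp3 scored 6.7, 9.61 and 17.05 at ZT0, ZT12 and ZT18 and were not listed at ZT6. None of the 6 was listed at all 4 timepoints, and their orders over the day differed. Skap2 was paired with 4 Hoxa baits, with Hoxa6 at all 4 timepoints (6.96, 7.38, 7.95 and 6.46). On the 5′ side, Tax1bp1, an autophagy receptor gene, was paired with 4 Hoxa baits. Its pair with Hoxa11 scored 17.67, 14.95 and 8.3 from ZT0 to ZT12, and none of the 4 was listed at ZT18. Hibadh, an enzyme of valine breakdown, was paired with Hoxa11 alone, and Nfe2l3, a transcription factor gene, with Hoxa6 and Hoxa11.

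In the b cluster the flanking genes Snx11, Cbx1, Copz2 and Ttll6 each had 1 or 2 pairs with Hox baits, with scores of at most 7.84, and Skap1's start had 2, with Hoxb4 (8.84, 5.35 and 5.75 from ZT0 to ZT12) and Hoxb5. In the d cluster Mtx2, which encodes a protein of the mitochondrial outer membrane, was paired with Hoxd8 and Hoxd4 at scores of at most 6.55. Of the flank genes listed for the a, b, c and d clusters, 4 of 10, 5 of 14, 2 of 12 and 1 of 10 had a pair with a Hox bait. Of the listed genes 9, 9, 12 and 7 had their start on a bait, and 1 symbol of the b list had no record. Skap1 was counted although its start is on no bait. Genes at like distance from other baits were not counted, so no share can be set beside these.

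**Figure D3:**
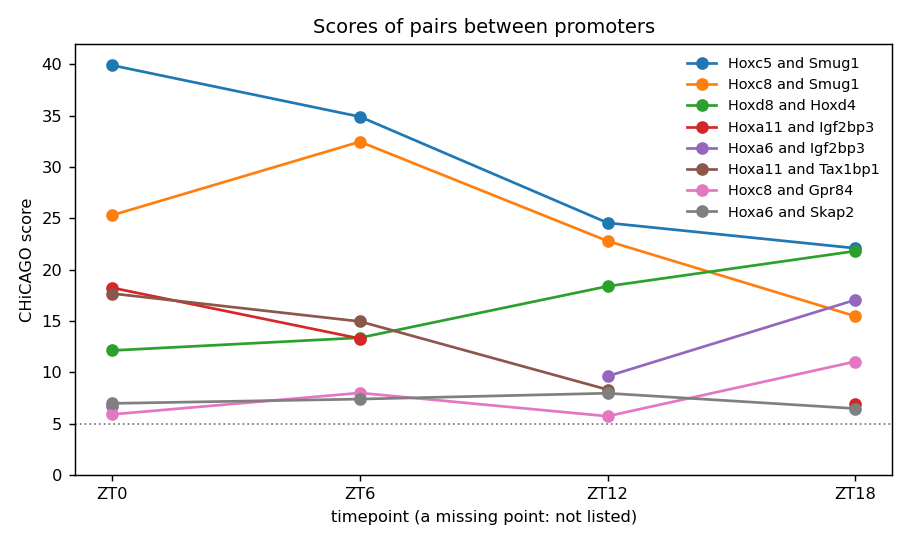
CHiCAGO score (y axis) at each timepoint (x axis) for 8 pairs between a Hox bait and another gene start, with 1 list per timepoint and no error bars; a missing point was not listed and the dotted line is the lowest score listed. The Smug1 pairs of Hoxc5 and Hoxc8 are lowest at ZT18, where the pair of Hoxd8 and Hoxd4 is highest.

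Genes that work with HOX proteins or set their expression had no pair with a Hox bait, which says little of them, since 17 of the 30 with a bait lie on chromosomes without a Hox cluster and the nearest of the others, Pcgf2, lies 1.33 Mb from one. The HOX cofactors of the Meis, Pbx and Pknox families, which bind DNA together with HOX proteins, had 9 baits with 1 to 62 contacts (median 6), the most at Meis3. Of 24 listed regulators of Hox clusters, 21 had a bait, 2 had none at their start and 1 symbol had no record. They had 1 to 38 contacts (median 14). Among Polycomb genes, Ezh1 had 35 contacts, with 25, 16, 16 and 25 over the timepoints, Eed had 31 and Bmi1 21, while Ezh2 and Suz12 had 2 each. Cdx2, which activates Hox genes in the embryo, had 38. Ctcf, whose protein bounds chromatin domains, had 3.

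Over the 4 timepoints the Hox pairs numbered 473, 450, 432 and 406 from ZT0 to ZT18. They made up 0.323%, 0.291%, 0.285% and 0.268% of the lists, so the count was highest at ZT0 although that list was the shortest. The a cluster had 114, 87, 100 and 89 pairs, and the b cluster 96, 84, 70 and 75. The c cluster had 157, 152, 163 and 149, and the d cluster 106, 127, 99 and 93. Only the a and b clusters were highest at ZT0. Among pairs with a score of at least 10 the counts were 143, 143, 143 and 123, which is 0.446%, 0.419%, 0.425% and 0.365% of the pairs with such a score, so that ZT0 was level with ZT6 and ZT12 in number and highest in share. A summary supplied with the study sets the list totals of ZT6, ZT12 and ZT18 against other timepoints than the labels do. The labels were followed, and under that other order the counts would be 473, 432, 406 and 450, and the values given here for ZT18 would belong to ZT12.

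**Figure D4:**
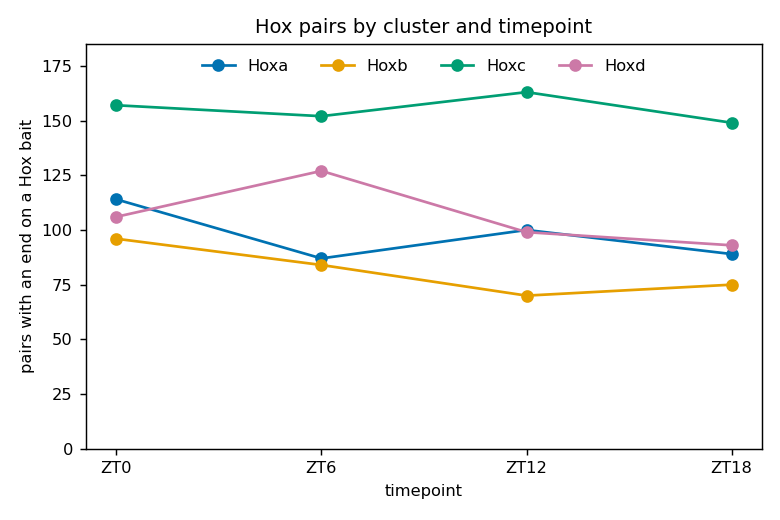
Number of pairs with an end on a Hox bait (y axis) at each timepoint (x axis), 1 line per cluster and 1 list per timepoint, with no error bars. The Hoxc line lies at 149 to 163 at every timepoint, above the others, which lie between 70 and 127.

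By bait, 15 of 35 Hox baits had their most contacts at ZT0 alone, 42.9% (28 to 59.1%), 9 at ZT6, 5 at ZT12 and 1 at ZT18, and 5 were tied. Of all baits 14.6% had theirs at ZT0 alone. Among baits with at least 10 contacts it was 13 of 22 Hox baits, 59.1% (38.7 to 76.7%), and 16% of all. Hoxb7 had 23 contacts at ZT0 and 14 at each of ZT6, ZT12 and ZT18. Hoxd3 had 27, 36, 27 and 28, with ZT6 highest, and Hoxc5 was nearly level with 41, 39, 40 and 39. Hox baits of one cluster share other ends, so these counts are not independent of each other.

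**Figure D5:**
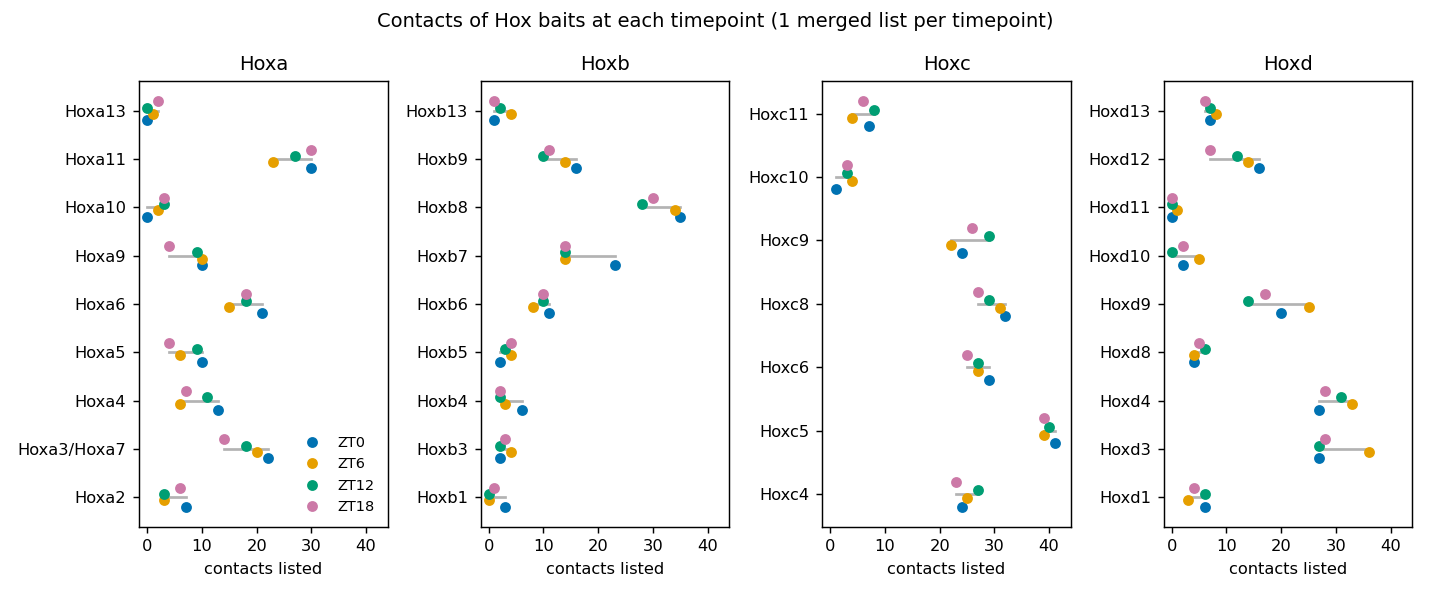
Contacts listed (x axis) for the Hox baits shown (rows, by paralogue number) at ZT0, ZT6, ZT12 and ZT18 (colours), with a grey line from the lowest to the highest of the 4. Hoxb7 lies at 23 at ZT0 and 14 at the other timepoints, and Hoxc5 between 39 and 41.

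Of the 695 pairs, 254 were listed at all 4 timepoints, 36.5% (33 to 40.2%), against 32.5% of all pairs, and 230 at 1 timepoint only, 33.1% (29.7 to 36.7%), against 35.2%. The c cluster decided this share. It had 123 of its 203 pairs at all 4, 60.6% (53.7 to 67.1%), while the a, b and d clusters had 24.1%, 25.2% and 30.2%, and without the c cluster it was 26.6% (22.9 to 30.7%), below that of all pairs. Hoxc5 had 35 of 46 contacts at all 4 timepoints and Hoxc8 27 of 35, whereas Hoxc11 had 1 of 18. Persistence went with the score, in part by construction, since a pair at all 4 timepoints must score at least 5 in every list. With a highest score from 5 to 6, 0 of 192 Hox pairs were listed at all 4 timepoints, against 0.784% of all pairs. Of Hox pairs whose highest score was at least 10, 92.3% (87.7 to 95.3%) were listed at all 4 timepoints, against 89.7% of all pairs in that class. With a highest score from 8 to 10 it was 38.9% (30.2 to 48.3%) and 52.6%, and from 6 to 8 it was 16% (11.6 to 21.7%) and 15.8%. Without the c cluster the Hox share was 87.6% (85 of 97) from 10, 31% (26 of 84) from 8 to 10 and 12.5% (20 of 160) from 6 to 8. Each was below that of all pairs, and the difference was widest from 8 to 10. No intervals were computed for these shares, so the smaller differences in the other classes cannot be set against counting error. Where an other end within 10 kb was taken as the same contact, 76% of Hox pairs (72.7 to 79%) were listed at all 4 timepoints, against 71% of all pairs and 70.5% of Hox pairs without the c cluster. Pairs listed once numbered 77, 63, 44 and 46 in the lists from ZT0 to ZT18, with median scores of 5.71, 5.52, 5.75 and 5.29. They were 16.3%, 14%, 10.2% and 11.3% of the Hox pairs of each list, and pairs listed once were 13.8%, 15.9%, 14% and 13.9% of each whole list.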

How the data were processed

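Per the labels, biotinylated RNA baits pulled both ends of HindIII fragments with promoters out of in nucleus Hi-C libraries from liver, and 3 pools per timepoint were sequenced. The authors processed reads on mm9 with HiCUP, merged the pools and used CHiCAGO to find pairs. The deposited CHiCAGO scores are all at least 5, so a pair just below this at one timepoint is absent there. No counts of reads are in the lists. The paper reports read totals of the capture libraries, which were not used here, so the effect of depth on the number of listed pairs was not examined.

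Pairs were taken as unordered and joined over the lists (python 3.11.15, numpy 2.4.6, pandas 2.3.3). Of 129887 listed fragments, 129886 were HindIII fragments of the mm9 reference. Gene starts, exons and sequences came from GENCODE vM1 and that reference. Distances join midpoints, and sides were taken from the outermost Hox gene ends. Intervals of shares (Wilson, 95%, from scipy 1.17.1) take in counting error alone. The functions were tested on simulated lists. The values of 1 Hoxa bait enter the counts and are not reported here.

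Named outside the Hox genes were genes starting on other ends of the 5 highest-scoring pairs per cluster, contacted flank genes, and cofactors and regulators from fixed lists, of which examples are given. The blocks, and Snx10, Jazf1 and Cbx5 overlapped by other ends, were chosen after their values were seen. The members and lists were chosen with earlier results of these data known. Alternatives were a higher score minimum, lists of equal length, other rules for gene starts, distance and sides, and the other timepoint order.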

Additional observations from a re-analysis of the deposited data

How the results depend on the processing

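No paired analysis was possible because the deposited lists merge all pools, and for the same reason no replicate could be left out. Depth, which affects how many pairs pass the score minimum, was not examined. With a score of at least 7, the Hox pairs numbered 274, 254, 250 and 224 at ZT0, ZT6, ZT12 and ZT18, 40.7% were listed at all 4 timepoints, 5 joined Hox baits of one cluster, the median distance was 261 kb, the median Hox bait had 8 contacts, and 99.3% of outside contacts of the c cluster lay on the 3′ side. With a score of at least 10, the pairs numbered 143, 143, 143 and 123, 47.7% were at all 4 timepoints and 24.1% at 1 only, 3 joined Hox baits, the median distance was 198 kb, the median bait had 3 contacts, and the 3′ side held 100% for the b and c clusters. Fewer pairs remain by construction. With an other end within 10 kb taken as the same contact, 76% were at all 4 timepoints and 7.63% at 1 only. Without the c cluster, which was chosen after seeing the data, the pairs numbered 316, 298, 269 and 257 from ZT0 to ZT18, again fewer by construction. Of them 26.6% were at all 4 and 37.2% at 1 timepoint only, and the median distance was 358 kb. Lists of equal length (146262 pairs) gave 473, 431, 422 and 389 Hox pairs. Starts of any transcript and the nearest bait within 5 kb were tried on counts of pairs and contacts only. Gaps between fragments were tried on the median distance, and baits of the same timepoint on the share with a bait at both ends. A 50 kb margin beyond the clusters was tried on the sides. Each of these results stayed within 1.5 times or its interval. The other timepoint order was tried on the counts of Hox pairs alone. It only reorders them, so they could not move that far, and it was not tried on single pairs or baits.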

Other observations

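The clusters also held baits without the start of a Hox gene record. The one with the most contacts, at chr2:74560207-74567345, carries further transcript starts of Hoxd3 and Hoxd4 and the microRNA gene Mir10b. It had 25 contacts, of which 24 lay beyond the 3′ end of the cluster and 10 were listed at all 4 timepoints, and it adjoins the Hoxd4 bait. Next came 0610040B09Rik, at chr11:96165556-96174457, with 13 contacts, and Mir196a-1, at chr11:96124939-96130008, with 12, of which 3, 10, 3 and 5 were listed at ZT0, ZT6, ZT12 and ZT18. All 12 contacts of Mir196a-1 lay on the 3′ side, as did those of its neighbour Hoxb9. In the c cluster Gm16258 had 10 contacts, each on the 3′ side and none at all 4 timepoints. The further start of Hoxa3 at chr6:52122436-52124758 had 1 contact, listed at all 4 timepoints with a highest score of 10.7.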
